A study of Mus musculus with 374 samples.

Results

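Granulocytes were compared with the progenitor and stem cells of the same bone marrow by summing the UMI counts of 96 single granulocytes (plate rows G to J) and of 95 single progenitor/stem cells (rows K to N), out of 374 labelled wells of 1 plate, the rest being erythroblasts and B lymphocytes of the same marrow and T lymphocytes of the thymus. A UMI (unique molecular identifier) is a random tag that marks 1 captured RNA molecule. The cells were index sorted from the marrow of 1 female C57BL/6 mouse, 10-13 weeks old, and measured by CEL-seq2, which tags the 3' ends of polyadenylated RNA and adds ERCC spike-in RNA to each well. Granulocytes were gated as Mac1+ Gr1+, and progenitor/stem cells as Lin- Kit+ Sca1+ (labelled LSK). The gates set the surface phenotype, so the genes of those antibodies are a check of the sort and not a finding. All wells of a population came from 1 animal and 1 sort, so each population was 1 sample, cells were not replicates, and no test between the populations was possible. Values are UMI counts per 1000000 mouse UMIs (CPM) of the summed wells, and the 95% intervals cover counting error only.

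Granulocytes of the marrow are mostly neutrophils and their precursors. They are made from stem cells by way of multipotent and granulocyte-committed progenitors, and fill their granules in waves: primary (azurophil) granules at the promyelocyte stage, specific granules at the myelocyte stage, and gelatinase granules as the nucleus becomes segmented. C/EBP transcription factors are known regulators of these genes. The LSK fraction holds the haematopoietic stem cells and the multipotent progenitors, which carry the receptors Kit and Flt3, express stem cell transcription factors and can divide.

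The granulocyte wells held 403506 mouse UMIs in all, from 8 to 22425 per well with a median of 3880, and the progenitor/stem wells held 834812, from 2003 to 24033 with a median of 7959. By correlation with the 5 population sums, 2 granulocyte wells were nearest to progenitor/stem cells and 1 progenitor/stem well to B lymphocytes. That well was the shallowest of its population (2003 UMIs) and had its highest level of granulocyte markers (25961 CPM). Without these 3 wells the numbers of genes past 2-fold given next were 599 and 1914. Before the results, 13 granulocyte wells have to be set apart. In 12 of the 94 wells with at least 1000 UMIs, the 8 granulocyte markers (Camp, Lcn2, Ltf, Mmp8, Ngp, Retnlg, S100a8 and S100a9) made up 850.3 to 3465 CPM, against 21619 to 329817 CPM in the other 82, and a median of 3106 CPM in 42 T lymphocyte wells, which should lack them. The same 12 wells held 6030.4 to 19697 CPM of 12 monocyte and macrophage markers, against a median of 278 CPM and a highest of 7492 CPM in the other 82. Their Gr1 fluorescence was 736 to 1987 units, where the median granulocyte well had 18601. These low marker wells held 17.2% of the granulocyte UMIs. The other well set apart was the deepest granulocyte well, with 22425 UMIs where the next had 8186, and with the highest c-Kit fluorescence (1511 units) and forward scatter of the granulocytes. Values without them, over the same genes, are given beside the results they moved most.

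Of 19829 mouse genes, 4440 had at least 50 UMIs in the summed populations and were compared. With sums under 3 UMIs set to 3, 607 genes (13.7%) were at least 2-fold higher in granulocytes and 1894 (42.7%) were at least 2-fold higher in progenitor/stem cells. At least 4-fold, the numbers were 289 (6.51%) and 837 (18.9%). The median log2 ratio of granulocytes over progenitor/stem cells was -0.76, so that the median gene was lower in granulocytes on this scale, and 90% of the genes lay between -3.04 and 2.55. Ratios with an interval below are of the sums as counted, and counts of genes and list medians use the floor of 3 UMIs. The balance depended on the scaling. With the TMM factors of edgeR, which centre the bulk of the genes, the median log2 ratio was 0.67 higher, and 1006 genes were higher in granulocytes and 1160 in progenitor/stem cells. With UMIs per ERCC UMI, it was 0.96 lower, and the numbers were 296 and 3083. Without the 12 low marker wells, 4216 genes were compared and 564 (13.4%) and 2030 (48.1%) were past 2-fold. All 27 of the list medians that lay past 2-fold kept their sign under every scaling tried, and 9 of the other lists of 3 or more genes did not. TMM and ERCC scaling shift every gene alike, by less than a log2 of 1. A median past 2-fold could therefore not turn under them, so its kept sign there is no support.

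**Figure D1:**
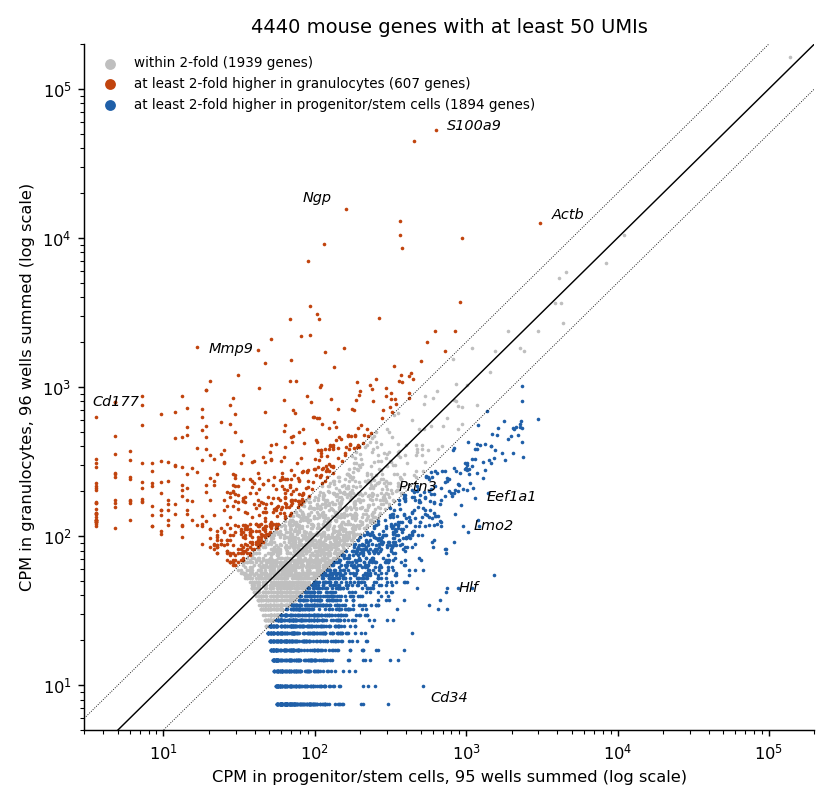
CPM of 4440 mouse genes in the summed progenitor/stem wells (x axis) and in the summed granulocyte wells (y axis), both on a log scale, with sums under 3 UMIs drawn at 3 UMIs. The solid line marks equal CPM and the dotted lines 2-fold; S100a9 stands at 52733 against 630.1 CPM and Cd34 at 9.91 against 519.9 CPM.

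The genes with the highest ratios were those of the granulocyte granules, the cell surface and the alarmins. Cd177, a neutrophil surface glycoprotein (chr7:24743983-24760311 in GENCODE M21, GRCm38, since the build behind the counts was not given), had 253 UMIs (627 CPM) in granulocytes and 3 (3.59 CPM) in progenitor/stem cells. Its log2 ratio was 7.45 (95% interval 5.88 to 9.73), the highest among genes with a UMI in 25% or more of the wells on their higher side, once sums under 3 UMIs were set to 3. Plbd1 and Lilr4b, an inhibitory receptor, followed with 320 UMIs each against 4, a log2 ratio of 7.37 (6.00 to 9.26). A predicted gene ranked 4th. Mmp9, the gelatinase of the late granules, stood at 1846 against 16.8 CPM. Of the other genes among the first 12, Itgb2l, a beta2-like integrin chain, had 189 UMIs against 4, Ccr1, a chemokine receptor, 133 against 2, and Slpi, the secretory leukocyte protease inhibitor, 124 against 1. With 1 UMI in progenitor/stem cells the Slpi ratio was loosely bounded, at a log2 of 8.00 (5.50 to 13.32) as counted and of 6.42 with the floor that sets its rank.

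S100a8 and S100a9, which encode the subunits of calprotectin, were the most abundant named genes of the granulocytes, behind a predicted gene that took 16.4% of the granulocyte and 13.8% of the progenitor/stem UMIs. S100a8 (chr3:90668978-90670035) stood at 44584 CPM in granulocytes and 454 CPM in progenitor/stem cells, a log2 ratio of 6.62 (6.47 to 6.77). S100a9 (chr3:90692632-90695721) stood at 52733 and 630.1 CPM, 6.39 (6.26 to 6.51). T lymphocytes, which should lack both, had 793 CPM of S100a8 and 1028 CPM of S100a9. The source of the progenitor/stem counts was not tested. After thinning each well to 1000 UMIs, S100a8 was seen in 92.6% of granulocyte wells and 33.7% of progenitor/stem wells (97.9% and 95.8% unthinned). Over the S100 family, 4 of 6 genes compared were higher in granulocytes, S100a6 and S100a11 being the others, while S100a10 and S100a13 were within 2-fold. Without the low marker wells 1 of the 6 was lower. In progenitor/stem cells the most abundant named genes were Mir6240 (10986 CPM), the mitochondrial ribosomal RNA mt-Rnr2 (8416 CPM), Hbb-bs (4601 CPM) and AA474408 (4381 CPM), all within 2-fold of granulocytes.

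At the other end, Cd34, the sialomucin that marks progenitors (chr1:194938819-194961279), had 434 UMIs (519.9 CPM) in progenitor/stem cells and 4 (9.91 CPM) in granulocytes, a log2 ratio of -5.71 (-7.60 to -4.35). Its level per well ran from 0 to 1633 CPM with a median of 462 in progenitor/stem cells, while 92 of the 96 granulocyte wells had no UMI. The other named genes of the lowest 12 were Mdn1, an AAA ATPase of ribosome assembly (7.43 against 207 CPM), Tsc22d1 (2 against 169 UMIs), the TNF receptor family member Cd27, the adhesion receptors Adgrg1 and Adgrl4, the sphingosine-1-phosphate transporter Spns2, Cxxc5 and Ctla2a. Adgrg1 was the most abundant of them, at 1085 CPM in progenitor/stem cells with a lowest well of 291 CPM and 44.6 CPM in granulocytes. Not all were low in the other populations. Mdn1 reached 195 CPM and Cd27 279 CPM in T lymphocytes, and Cxxc5 184 CPM in B lymphocytes. Ranks 2, 3 and 11 were predicted genes. Exons of Lilr4b, Cd34, Spns2, Cxxc5 and Ctla2a overlap those of another annotated gene, so their UMIs could not be assigned with certainty.

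**Figure D2:**
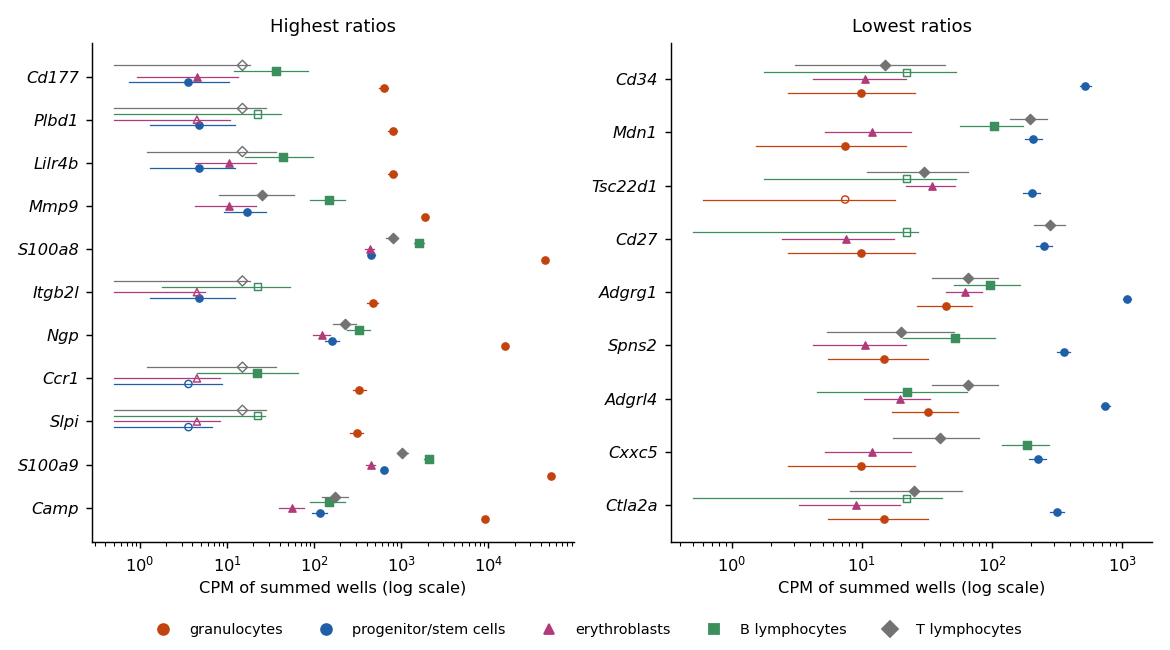
CPM of the named genes among the 12 highest (left) and the 12 lowest (right) log2 ratios in the 5 sorted populations, on a log scale. Points are sums over wells, open where the sum was under 3 UMIs and then drawn at 3, and lines are 95% Poisson intervals drawn down to 0.5 CPM; Adgrg1, for example, stands at 1085 CPM in progenitor/stem cells and below 100 CPM in the other populations.

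All 14 specific granule and myelocyte genes compared were at least 2-fold higher in granulocytes, against 13.7% of all genes, with a median log2 ratio of 5.37 and a range of 2.74 to 7.45. Members of this and the other lists were chosen with earlier results of these data known. Some, such as Cd177 (253 against 3 UMIs), reached 50 UMIs only through granulocytes, so the count is a description and not a test. Dstn is also counted in the actin list, Ltb4r1 among the surface receptors, Lyz2 among the lysosomal genes and Itgb2l among the adhesion genes. The list took 65493 CPM in granulocytes and 1511 CPM in progenitor/stem cells, the latter below the 1866 CPM of T lymphocytes. Ngp, a neutrophilic granule protein, stood at 15675 against 161 CPM. Lyz2, the lysozyme of myeloid cells, stood at 13041 against 364 CPM. Camp, the cathelicidin, stood at 9147 against 115 CPM, Lcn2, a siderophore-binding lipocalin, at 8508 against 379 CPM, and Ltf, lactotransferrin, at 7051 against 89.8 CPM. Granulocyte wells were uneven in these genes. Camp ran from 0 to 33612 CPM with a median of 838, and 16 wells held 50% of the list's UMIs in granulocytes where 31 wells held 50% of all granulocyte UMIs. Of the granulocyte wells with at least 1000 UMIs, 92 of 94 lay above the highest progenitor/stem well in the list's summed level. The 12 low marker wells had 27133 CPM of this list, of which Lyz2 gave 1500 of 1884 UMIs and Ngp, Camp and Ltf 11, 9 and 9.

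The 250 bases before the start sites of S100a9 and of 3 specific granule genes are printed from RefSeq (GRCm38.p6) to show the promoters of genes that were higher together. Capitals mark matches to TTGCNNAA on either strand, a form of the C/EBP site, with a stretch that fits both strands counted once. S100a9 lies at chr3:90695722-90695971, minus strand, Ngp at chr9:110419558-110419807, plus strand, Camp at chr9:109849457-109849706, minus strand, and Ltf at chr9:111019042-111019291, plus strand.
S100a9: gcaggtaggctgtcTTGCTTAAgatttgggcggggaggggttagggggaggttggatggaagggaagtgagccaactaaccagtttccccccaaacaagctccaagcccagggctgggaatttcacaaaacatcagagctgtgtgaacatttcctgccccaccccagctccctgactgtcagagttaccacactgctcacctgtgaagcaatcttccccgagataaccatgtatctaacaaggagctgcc
Ngp: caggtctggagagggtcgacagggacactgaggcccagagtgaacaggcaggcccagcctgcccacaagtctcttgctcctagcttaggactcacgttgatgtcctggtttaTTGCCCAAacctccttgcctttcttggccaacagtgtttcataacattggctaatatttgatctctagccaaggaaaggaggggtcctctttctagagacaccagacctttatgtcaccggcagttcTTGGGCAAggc
Camp: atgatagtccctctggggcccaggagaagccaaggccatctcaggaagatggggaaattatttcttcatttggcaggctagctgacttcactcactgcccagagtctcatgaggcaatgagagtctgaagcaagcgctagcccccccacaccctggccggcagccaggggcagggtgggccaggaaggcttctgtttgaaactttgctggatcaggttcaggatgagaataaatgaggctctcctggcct
Ltf: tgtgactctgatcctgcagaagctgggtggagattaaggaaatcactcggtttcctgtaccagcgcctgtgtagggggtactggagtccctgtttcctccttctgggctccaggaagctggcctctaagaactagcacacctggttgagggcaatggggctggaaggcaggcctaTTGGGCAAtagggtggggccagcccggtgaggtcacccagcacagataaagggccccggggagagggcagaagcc
S100a9 and Ltf have 1 match each, Ngp has 2, and Camp has no match in this window. Of the 14 specific granule genes compared, 13 have a RefSeq promoter in the table, and 4 of these 13 (30.8%) hold the motif, those of Ltf, Ngp, Lcn2 and Anxa1. The share over 32851 promoters of the same length was 9.56%. It was 27.3% for the gelatinase granule and late neutrophil genes, 17.4% for the myeloid surface receptors and 11.5% for the S phase genes. For ribosome biogenesis genes and stem cell transcription factors it was 7.69% and 4.0%. For stem and progenitor surface genes and for G2 and mitosis genes it was 0. A match is a description of the letters and not a bound site.

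Late neutrophil and gelatinase granule genes followed the same direction: 15 of 16 were higher in granulocytes (median 5.04), and Ifitm1, an interferon-induced membrane protein, was lower (104 against 266 CPM). Retnlg, a resistin-like protein, stood at 10416 against 368 CPM, and Mmp8, the neutrophil collagenase, at 3512 against 93.4 CPM. All 25 myeloid surface receptors and adaptors compared were higher in granulocytes (median 5.22). They bind chemoattractants, cytokines, antibodies, complement or microbial products, or signal for such receptors, and the other 9 of the 34 listed had under 50 UMIs. The receptors with the largest ratios were Ccr1, Pirb and the Fc receptor Fcgr3, at 357 against 4.79 CPM. Cxcr2, a receptor for CXC chemokines, had 288 UMIs, none of them in the low marker wells, against 15. Csf3r, the receptor of granulocyte colony-stimulating factor, was measured in both populations, at 833 CPM and at 128 CPM, where T lymphocytes had 15.0 CPM. Ccr2, a monocyte chemokine receptor, was of another kind: 231 of its 276 UMIs lay in the 12 low marker wells, and its log2 ratio was 5.84 (4.93 to 6.91) with them and 3.49 without.

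The phagocyte NADPH oxidase makes superoxide in the phagosome. Of its 7 genes compared, 6 were higher in granulocytes (median 3.29). Cybb, the catalytic subunit, stood at 2857 against 68.3 CPM and its partner Cyba at 867 against 88.6 CPM. The cytosolic subunits Ncf1 and Ncf4 had log2 ratios of 3.56 (2.58 to 4.70) and 3.59 (2.84 to 4.43). Rac2, the GTPase of the complex, was also measured in progenitor/stem cells (1383 against 335 CPM), and Rap1a was within 2-fold. Every one of the 94 granulocyte wells lay above the highest progenitor/stem well in the summed level of this list. Lysosomal genes were closer between the populations (12 of 21 higher in granulocytes, none lower, median 1.12), and without the low marker wells 8 were higher, 1 was lower and the median was 0.68. Per ERCC UMI it was 0.17.

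Primary granule genes gave a mixed picture that turned on 1 well. Of 9 compared, 3 were higher in granulocytes and 2 in progenitor/stem cells, against 13.7% and 42.7% of all genes. The median log2 ratio was -0.76, as over all genes. Without the deepest well and the low marker wells it was -1.73. Elane, neutrophil elastase, had 142 UMIs in granulocytes and 17 in progenitor/stem cells, but the deepest granulocyte well held 128 of the 142. Without it the log2 ratio of Elane moved from 4.11 (3.38 to 4.93) to 0.85. Mpo, myeloperoxidase, stood at 124 against 231 CPM, and 48 of its 50 granulocyte UMIs came from the same well, so that its log2 ratio was -0.90 (-1.38 to -0.44) with the well and -4.88 without. Prtn3, proteinase 3, gave -0.76 (-1.15 to -0.38) and -3.43, with 63 of 74 granulocyte UMIs there. In progenitor/stem cells these transcripts were spread over more wells. Prtn3 ran from 0 to 1745 CPM with a median of 238, and Mpo from 0 to 1829 CPM with a median of 0. T lymphocytes had 15.0 CPM of Mpo and 29.9 CPM of Prtn3. Plac8 and Nkg7 were lower in granulocytes, while Clec12a, a C-type lectin, and Serpinb1a, an elastase inhibitor, were higher. Ctsg, Ms4a3 and Prss57 had fewer than 50 UMIs.

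Among 16 transcription factors of granulocyte and monocyte development, 11 were higher in granulocytes and none was lower (median 2.48), and without the low marker wells 10 were higher and 2 lower. Cebpe, the factor of specific granule formation, had 61 UMIs against 1, a log2 ratio of 6.98 (4.45 to 12.31) as counted and of 5.39 with the floor. Mxd1, a partner of Max, stood at 317 against 9.58 CPM, and Cebpd at 230.5 against 9.58 CPM. Spi1 (PU.1), which both stem cells and granulocytes are known to use, differed by less, 714 against 177 CPM. Cebpb and Irf8, the monocyte and dendritic cell factor, depended on the low marker wells: 30 of 60 and 54 of 63 granulocyte UMIs lay there, and without them the log2 ratio went from 3.37 (2.46 to 4.40) to 2.64 for Cebpb and from 1.35 (0.80 to 1.92) to -1.18 for Irf8. Gfi1, a repressor used by both cell types, had under 50 UMIs in all.

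The transcription factors of stem and progenitor cells pointed the other way, with 14 of 19 higher in progenitor/stem cells and none higher in granulocytes (median -3.04). Sox4 and Myb were the lowest in ratio, at 44.6 against 886 CPM and 32.2 against 656 CPM. Hlf, a stem cell factor of the PAR family, stood at 44.6 against 752 CPM, and Lmo2, a bridging factor of the Tal1 complex, at 116 against 956 CPM. Myc, Hoxa9 and Gata2 had log2 ratios of -3.96 (-5.42 to -2.81), -3.85 (-5.32 to -2.70) and -2.83 (-4.08 to -1.81). Mycn was not seen in 403506 granulocyte UMIs, of which 3 UMIs would be 7.43 CPM, against 63.5 CPM in progenitor/stem cells. Meis1 was likewise seen only in progenitor/stem cells of the pair, with 44 UMIs, under the minimum of 50. Runx1, used throughout the myeloid lineage, differed by less (69.4 against 186 CPM), and Ikzf1 and Fli1 were within 2-fold, at log2 ratios of -0.05 (-0.41 to 0.31) and 0.35 (-0.16 to 0.84). For the list as a whole, 79 of 95 progenitor/stem wells lay above the highest granulocyte well.

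Of 16 surface genes of stem and progenitor cells, 12 were higher in progenitor/stem cells (median -3.62). Kit, the receptor of stem cell factor and a gate of the sort, stood at 37.2 against 677 CPM, and the cytokine receptor Flt3 at 22.3 against 439.6 CPM. Flt3 was uneven in progenitor/stem wells, from 0 to 1615 CPM with a median of 290.2. Eng (endoglin) and Angpt1 were not seen in granulocytes and stood at 116 and 82.7 CPM in progenitor/stem cells, at least 15.6-fold and 11.1-fold higher at a floor of 3 UMIs. The 3 members higher in granulocytes were Cd9, a tetraspanin (223 against 45.5 CPM), Ifitm3 (912 against 321 CPM) and Ly6a. Without the low marker wells 2 were higher in granulocytes and 11 in progenitor/stem cells. The 250 bases before Cd34 (chr1:194938571-194938820, plus strand) are printed beside those of the granule genes, as the gene with the lowest ratio of all genes compared. They hold no match to TTGCNNAA, like most promoters, of which 9.56% hold one.
Cd34: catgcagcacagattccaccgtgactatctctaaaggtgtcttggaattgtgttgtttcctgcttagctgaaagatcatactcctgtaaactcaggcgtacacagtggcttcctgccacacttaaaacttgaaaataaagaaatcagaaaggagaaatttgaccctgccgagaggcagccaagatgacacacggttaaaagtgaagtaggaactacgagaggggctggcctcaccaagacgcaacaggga

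Protein and RNA could be set side by side for the sort. The index data gave c-Kit at 2842 to 13046 with a median of 6329 fluorescence units in progenitor/stem wells and at -111 to 1511 with a median of 174.5 in granulocyte wells. Sca-1 ran from 2123 to 25890 with a median of 5161 in progenitor/stem cells and from -57 to 906 with a median of 62.5 in granulocytes. Gr1 ran from 736 to 49318 with a median of 18601 in granulocytes and from -60 to 541 with a median of 77 in progenitor/stem cells, and Mac-1 from 577 to 7155 with a median of 1173 in granulocytes and from 14 to 284 with a median of 120 in progenitor/stem cells. None of the 4 channels overlapped between the populations. The gates select for c-Kit and Sca-1 in progenitor/stem cells and for Gr1 and Mac-1 in granulocytes. The granulocyte gate as given sets no limit on c-Kit or Sca-1. Itgam, the gene of Mac-1, followed its protein, at 1103 against 68.3 CPM. Gr1 antibody binds Ly6G and Ly6C. Ly6c2 stood at 1445 against 46.7 CPM, Ly6c1 had 50 UMIs against 0, and Ly6g, the defining antigen, had 10 UMIs in all 96 granulocyte wells against 0, too few to be compared. Ly6a, the gene of Sca-1, did not follow its protein: it had 69 UMIs (171 CPM) in granulocytes and 66 (79.1 CPM) in progenitor/stem cells, a log2 ratio of 1.11 (0.60 to 1.62). With each well thinned to 1000 UMIs, which leaves few of these UMIs, the ratio turned to -0.50, and without the low marker wells it was 0.95, under 2-fold. Cd44, with 23 and 28 UMIs, was within 2-fold, at a log2 ratio of 0.77 (-0.10 to 1.61), while 77 of 96 granulocyte wells lay above the range of the progenitor/stem wells in CD44 fluorescence (medians 19218.5 and 6495).

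Genes of other lineages that multipotent progenitors can transcribe were also higher in progenitor/stem cells. Of 7 lymphoid genes compared, 4 were, against 42.7% of all genes (median -2.24). Dntt, the terminal transferase, stood at 389 CPM in progenitor/stem cells against 37.2 CPM in granulocytes. Dntt was concentrated, at 0 to 5785 CPM per progenitor/stem well with a median of 0. Of 6 erythroid and megakaryocyte genes, 4 were higher in progenitor/stem cells (median -2.45, and -0.78 with scran), Muc13 among them at 262 against 17.3 CPM. Car2, carbonic anhydrase 2, reached all 95 progenitor/stem wells, from 79.2 to 2858 CPM, with a sum of 904 CPM against 265 CPM in granulocytes and 274 CPM in T lymphocytes.

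**Figure D3:**
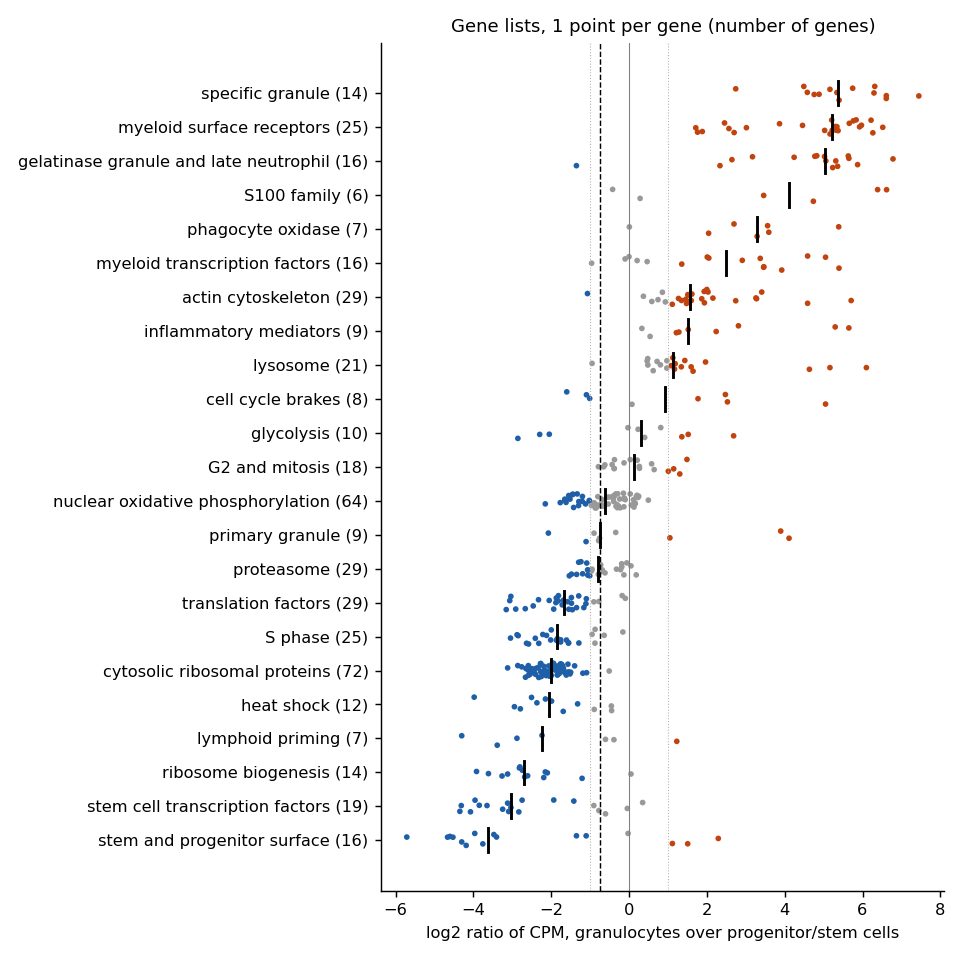
Log2 ratio of CPM of the genes in 23 lists, ordered by the list median. Each point is a gene with at least 50 UMIs, coloured where past 2-fold, black bars are list medians, and the dashed line is the median of all genes (-0.76); specific granule genes stand at a median of 5.37 and stem and progenitor surface genes at -3.62.

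The actin cytoskeleton, which drives leukocyte movement, was higher in granulocytes in 23 of 29 genes (median 1.55), and 1, Tagln2, was lower. Per ERCC UMI the median was 0.60, under 2-fold. Actb stood at 12639 against 3098 CPM and ran from 4559.6 to 21283 CPM over granulocyte wells and from 789 to 6989.5 CPM over progenitor/stem wells. Tmsb4x, the actin monomer binder thymosin beta 4, stood at 9963 against 938 CPM. Fgr, a Src family kinase of myeloid cells, had a log2 ratio of 4.59 (3.85 to 5.42). The list took 24439 to 67932 CPM in granulocyte wells and 5783 to 21967 CPM in progenitor/stem wells, without overlap. The 12 low marker wells shared the high level, at 24439 to 43202 CPM. In adhesion, 6 of 15 genes were higher in granulocytes, against 13.7% of all genes, among them the integrin chains Itgam and Itgb2 (1004 against 108 CPM). In progenitor/stem cells 5 were higher, Pecam1, Itga2b, Itga6, Itgb1 and Cd47, no larger a share than the 42.7% over all genes. The adhesion median was 0.53 on CPM, -0.42 per ERCC UMI and -0.18 without the low marker wells, where 7 were higher in each population. Of 7 nuclear envelope genes, 3 were higher in granulocytes: Syne1 (nesprin 1) at 1712 against 116 CPM, Sun2, and Lbr, the lamin B receptor. Their median turned from -0.43 on CPM to 0.24 with TMM.

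**Figure D4:**
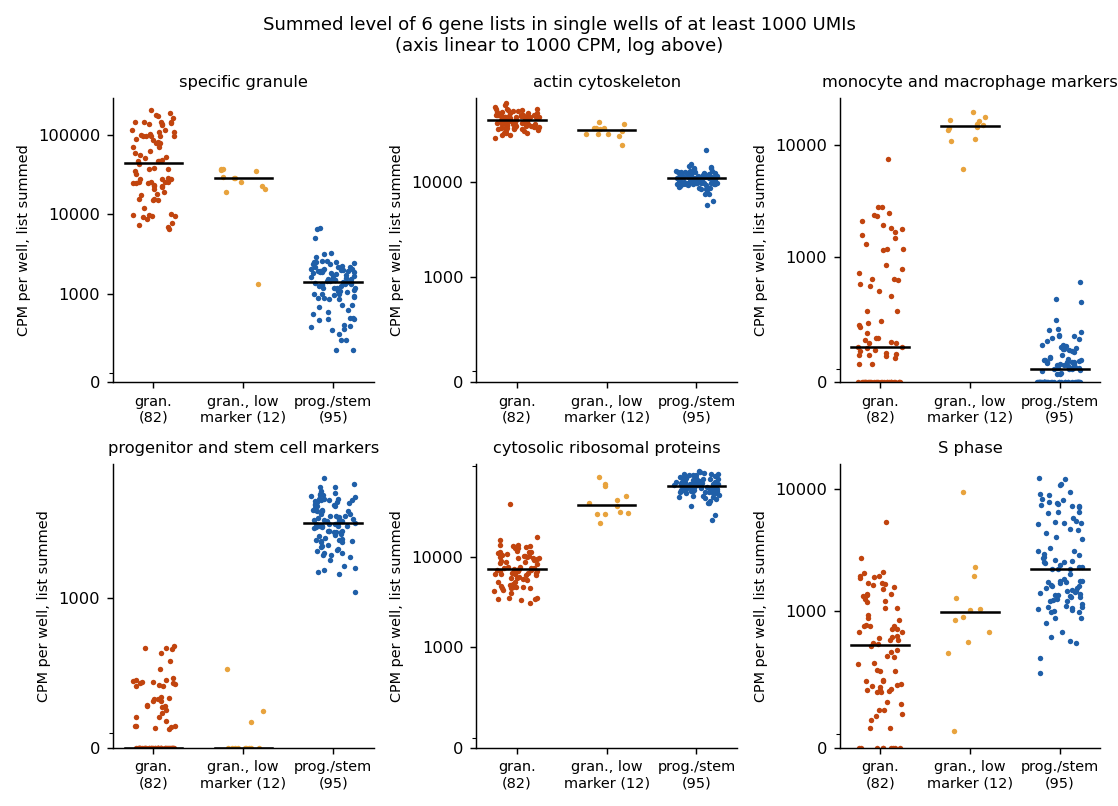
Summed CPM of 6 gene lists in each well with at least 1000 UMIs, for 82 granulocyte wells, the 12 low marker granulocyte wells and 95 progenitor/stem wells, with the median of each as a bar and an axis that is linear to 1000 CPM and logarithmic above. Actin genes are high in all granulocyte wells, while for ribosomal proteins the median of the low marker wells lies between those of the other groups.

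The translation machinery was lower in granulocytes. Of 72 cytosolic ribosomal protein genes compared, 71 were at least 2-fold higher in progenitor/stem cells, against 42.7% of all genes, with a median log2 ratio of -2.01. The list took 59020.5 CPM in progenitor/stem cells and 15036 CPM in granulocytes. Rplp1, the most abundant, ran from 1072 to 5570 CPM over progenitor/stem wells, with a median of 2906, and from 0 to 3383 CPM with a median of 277 over granulocyte wells. Rps27l, an alternative form, was the 1 member within 2-fold, at -0.51 (-1.08 to 0.03). Ribosomal protein genes have many processed copies in the genome, so single members are less certain than the list. The 12 low marker wells carried 46.5% of the granulocyte UMIs of this list, at 23335 to 75249 CPM per well against a median of 7209 CPM in the other granulocyte wells. Without them and the deepest well the median log2 ratio was -3.08. With TMM factors 61 of the 72 stayed past 2-fold. Of 29 translation factors, 25 were higher in progenitor/stem cells (median -1.68), with Eef1a1 at 181 against 1150.0 CPM and Eef2 at 401 against 1469 CPM. With TMM 15 were, with a median of -1.01, and the median was -0.93 with scran. Of 14 nucleolar ribosome biogenesis genes, 13 were higher there (median -2.71), with Npm1, nucleophosmin, at 107 against 1024 CPM and Ncl, nucleolin, at 59.5 against 517 CPM. Polr1a, the large subunit of RNA polymerase I, was within 2-fold.

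S phase genes were higher in progenitor/stem cells, and mitosis genes were not. Of 25 S phase genes, 20 were higher in progenitor/stem cells and none in granulocytes (median -1.84). The replicative helicase subunits Mcm6, Mcm4 and Mcm3 had log2 ratios of -3.05 (-3.78 to -2.40), -2.88 (-4.04 to -1.91) and -2.85 (-3.83 to -2.01), and Pcna, the sliding clamp, stood at 54.5 against 218 CPM. Of 18 G2 and mitosis genes, none was higher in progenitor/stem cells and 4, Cenpa, Kif23, Hmgb2 and Ube2c, were higher in granulocytes. Their median was 0.12 on CPM, 0.79 with TMM and -0.84 per ERCC UMI, and -0.08 on CPM without the low marker wells. Mki67, a marker of dividing cells, stood at 406 and 398 CPM, and Top2a at 243 and 374 CPM. These genes were concentrated in few wells of both populations: 5 granulocyte wells and 11 progenitor/stem wells held 50% of the UMIs of the G2 and mitosis list. The deepest granulocyte well gave 39 of 164 Mki67 UMIs and 33 of 98 Top2a UMIs. Without it and the low marker wells the median was -0.36 for the mitosis list and -2.73 for the S phase list. The 250 bases before Mcm6 (chr1:128359706-128359955, minus strand) are shown for the S phase gene with the lowest ratio, with matches to the E2F forms TTTGGCGC and TTTCCCGC on either strand in capitals.
Mcm6: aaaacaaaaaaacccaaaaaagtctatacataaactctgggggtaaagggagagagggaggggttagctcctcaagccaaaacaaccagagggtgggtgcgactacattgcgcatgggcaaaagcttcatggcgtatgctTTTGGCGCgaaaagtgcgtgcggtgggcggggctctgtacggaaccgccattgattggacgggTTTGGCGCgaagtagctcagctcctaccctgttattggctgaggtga
Mcm6 has 2 matches, the first bases of which lie 110 and 47 bases before the start site. Of 25 S phase genes compared, 20 have RefSeq promoters in the table, and 5 of their 26 promoters (19.2%) hold a match, against 1.30% of 32851 promoters. The share was not particular to S phase genes. It was 2 of 13 promoters (15.4%) for the ribosome biogenesis genes and 0 of 17 for the G2 and mitosis genes. Of 8 brakes of the cell cycle, 4 were higher in granulocytes (Mxd1, Btg2, Btg1 and the kinase inhibitor Cdkn2d), against 13.7% of all genes. In progenitor/stem cells 3 were higher (Mxd4, Rbl1 and Rbl2), no larger a share than the 42.7% over all genes. The median of the brakes was 0.92 on CPM and -0.03 per ERCC UMI.

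RNA processing and protein folding genes had the same direction as translation. Of 23 splicing and RNA-binding genes, 18 were higher in progenitor/stem cells on CPM, against 42.7% of all genes (median -1.49), led by Hnrnpa1 and Srsf7. With TMM 10 were, against 26.1% of all genes (median -0.82). Of 12 heat shock chaperones, 9 were higher in progenitor/stem cells on CPM (median -2.07), with Hsp90ab1 at 359 against 2042 CPM and the chaperonin subunit Cct3 at 2 against 98 UMIs. Of 7 high mobility group chromatin genes, 4 were higher in progenitor/stem cells, against 42.7% of all genes (median -1.80). Hmgn1 had the largest ratio of the 4, while Hmgb2 was higher in granulocytes (399 against 162 CPM). The summed levels of that list were closer, at 731 CPM in granulocytes and 900 CPM in progenitor/stem cells. Genes of respiration and protein turnover differed less. The 64 nuclear genes of oxidative phosphorylation had a median of -0.62 on CPM, with 18 higher in progenitor/stem cells, a smaller share than the 42.7% over all genes, and none in granulocytes. The median was 0.05 with TMM, where 2 stayed past 2-fold. Without the low marker wells 29 were higher in progenitor/stem cells, where the share over all genes was 48.1%. Proteasome genes had a median of -0.79, near that of all genes, with 12 of 29 higher in progenitor/stem cells, no larger a share than over all genes, and none past 2-fold with TMM. The 8 mitochondrially encoded genes compared had a median of -1.33, with 6 higher in progenitor/stem cells on CPM and 3 with TMM (median -0.66). Of the progenitor/stem wells, 14 held 50% of the UMIs of this list, where 33 held 50% of all UMIs. The list summed to 2238 CPM in granulocytes and 4930 CPM in progenitor/stem cells, but the median wells had 1804 and 2179 CPM. Glycolysis was mixed over the 10 genes compared. Hk3, Eno1 and Pkm (1138 against 444 CPM) were higher in granulocytes, against 13.7% of all genes. Pfkl, Ldhb and Hk1 were higher in progenitor/stem cells, no larger a share than the 42.7% over all genes. The glycolysis median was 0.32 on CPM and -0.64 per ERCC UMI.

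Among immune response genes, 7 of 9 cytokines, chemokines and related mediators were higher in granulocytes and none was lower (median 1.52, and 0.56 per ERCC UMI). Without the low marker wells 6 were higher and 1 was lower. Ccl6, a chemokine, stood at 962 against 19.2 CPM, Alox5ap, the 5-lipoxygenase activating protein, at 944 against 200.0 CPM, and Il1rn, the interleukin-1 receptor antagonist, had 57 UMIs against 2. Of 9 immediate early genes, 7 were higher in granulocytes (median 2.05), led by Klf6 (414 against 55.1 CPM), and Myc and Ier3 were higher in progenitor/stem cells. Klf6, Junb, Btg2 and Myc are also counted in other lists. The other 7 listed had under 50 UMIs. Fos had 0 in granulocytes against 3, Fosb 0 against 5, Egr1 0 against 8 and Jun 5 against 16. Dusp1 had 13 against 10, Nr4a1 9 against 6 and Atf3 4 against 0. Antigen presentation genes leaned towards progenitor/stem cells on CPM. Of 17 MHC class I and peptide loading genes, 10 were higher in progenitor/stem cells, against 42.7% of all genes, and none in granulocytes. Their median was -1.05, against -0.76 over all genes. With TMM the numbers were 3 and 1, where 26.1% and 22.7% of all genes were higher. The median was then -0.38, against -0.089 over all genes. The classical class I gene H2-K1 stood at 29.7 against 147 CPM, though B2m, the shared light chain, was within 2-fold at 2382 and 2969.5 CPM. The 3 MHC class II genes compared, H2-Ob, H2-DMa and H2-Ab1, were all higher in progenitor/stem cells, with a median of -1.77 that was -3.16 without the low marker wells. The other 7 of the 10 listed had under 50 UMIs, Cd74 among them with 11 in granulocytes against 10. Interferon-induced genes were mixed, with 3 of 9 higher in granulocytes and 2 in progenitor/stem cells, against 13.7% and 42.7% of all genes. The interferon list's median was 0.12 on CPM and -0.83 per ERCC UMI. Of 8 survival and death genes, Mcl1 was higher in granulocytes (530.4 against 194 CPM), and Bcl2 (32.2 against 143 CPM) and Casp4 in progenitor/stem cells. Neither share was larger than the 13.7% and 42.7% over all genes. Without the low marker wells 4 were higher in progenitor/stem cells. The survival list's median was -0.44 on CPM and 0.23 with TMM.

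Granulocytes yielded fewer mouse UMIs for each spike-in UMI. The summed wells gave 9.67 mouse UMIs per ERCC UMI in granulocytes and 18.8 in progenitor/stem cells, which was 1.94-fold higher (95% interval 1.91 to 1.97, a normal approximation of the counting error). Per well the ratio ran from 3.02 to 45.2 with a median of 9.02 in granulocytes and from 7.51 to 38.8 with a median of 17.2 in progenitor/stem cells. The ranges overlapped, but 89 of 94 granulocyte wells lay below the progenitor/stem median. The low marker wells were higher than the other granulocyte wells, with medians of 14.1 and 8.61, and without them the fold was 2.06. The UMIs of granulocytes fell on fewer genes than those of progenitor/stem cells. With each well thinned to 1000 UMIs, which left out 2 granulocyte wells, the median was 496.5 genes per granulocyte well (369 to 749) and 711 per progenitor/stem well (511 to 790). Unthinned, the medians were 1280.5 and 3358.

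**Figure D5:**
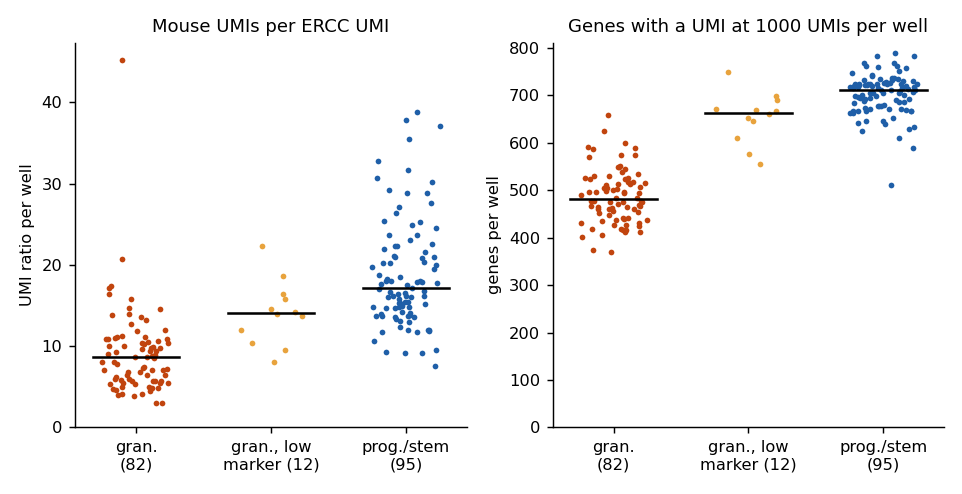
Mouse UMIs per ERCC UMI (left) and number of genes with a UMI after thinning to 1000 UMIs (right) in each well with at least 1000 UMIs, with group medians as bars. In both panels the 82 granulocyte wells sit mostly below the progenitor/stem wells, and the medians of the 12 low marker wells lie between those of the others.

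Markers of other cell types were counted in both sums, and their part in the results was not tested beyond the values given. The 12 monocyte and macrophage markers in the table took 3229 CPM in granulocytes and 147 CPM in progenitor/stem cells, and 1009 of the 1303 granulocyte UMIs lay in the 12 low marker wells. Fn1, fibronectin, had a log2 ratio of 6.72 (5.58 to 8.18), with 264 of 306 UMIs in those wells and a further 38 in the deepest well. All 6 monocyte markers compared were higher in granulocytes, with a median of 4.86, which was 3.27 without the low marker wells and 0.47 without the deepest well as well. Only Mpeg1 then still reached 50 UMIs, at a log2 ratio of 3.22. Of the basophil and mast cell markers only Hdc, histidine decarboxylase, was compared (312 against 10.8 CPM), with none of its UMIs in those 13 wells. Mcpt8, Cpa3 and the other members had under 50 UMIs. No eosinophil, natural killer or T lymphocyte marker reached 50 UMIs, and the lists took 57.0, 7.43 and 84.3 CPM in granulocytes and 14.4, 2.40 and 64.7 CPM in progenitor/stem cells. B lymphocyte markers took 315 and 328 CPM, against 13674 CPM in B lymphocytes. Both megakaryocyte markers compared, Itga2b among them, were higher in progenitor/stem cells, as was Tcf4 of the 2 plasmacytoid dendritic cell markers compared, although 22 of its 29 granulocyte UMIs lay in the low marker wells. Erythroblast markers other than Car2 had log2 ratios between 0.18 and 0.46, and the median of the list was 0.35 on CPM and -0.61 per ERCC UMI. Hba-a1 and Hba-a2 are near-identical, as are H2-Q6 and H2-Q7, and their counts are uncertain. Hbb-bs stood at 5886 and 4601 CPM, against 6382 CPM in T lymphocytes and 85233 CPM in erythroblasts, a level shared by cells that should lack it. Of the progenitor and stem cell markers, all 5 compared (Cd34, Adgrg1, Flt3, Kit and Hlf) were higher in progenitor/stem cells, where they and Meis1 took 1103 to 7780.0 CPM per well, against 0 to 678 CPM in granulocyte wells.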

How the data were processed

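Each deposited value was a raw UMI count of 1 gene in 1 well, made by the authors with scPipe, which assigned reads to exons, split them by the designed well barcodes and collapsed UMIs; its default aligner was Rsubread. Aligner version, genome build, annotation and use of strand were not given in the sources used here. Among 374 labelled wells no barcode was shared, and 9 columns that matched no label were not used. Wells were grouped by their labels. No wells were removed and no doublet caller was run.

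Counts were summed over the 96 granulocyte and 95 progenitor/stem wells and divided by the sum over mouse genes (CPM). Genes with at least 50 UMIs in both sums together were compared, and "higher" means at least 2-fold, with sums under 3 UMIs set to 3. Each population was 1 sample, so there are no p-values. Intervals (95%, exact Poisson for a level and exact conditional binomial for a ratio) cover counting error only, which is set by the 403506 and 834812 UMIs. Thinning drew 1000 UMIs per well with a fixed seed. Gene symbols came from GENCODE M21. The steps were tested on simulated data.

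Genes named are the 12 highest and 12 lowest ratios among genes with a UMI in 25% or more of the wells on their higher side, the 5 most abundant per population, the genes of the gating antibodies, and members of 45 lists, with predicted genes given by rank. Some list members are counted but not reported here by name. The members and lists were chosen with earlier results of these data known. Other scalings, well filters, UMI minimums and folds were tried, and leaving out the low marker and deepest wells was chosen after seeing the data. Python 3.11.15 with numpy 2.4.6, pandas 2.3.3, scipy 1.17.1 and matplotlib 3.10.9 was used, and R 4.3.3 with edgeR 4.0.16 and scran 1.30.0 for scaling factors.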

Additional observations from a re-analysis of the deposited data

How the results depend on the processing

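The numbers of genes past 2-fold, higher in granulocytes and higher in progenitor/stem cells, were 607 and 1894 as reported and 1006 and 1160 with TMM, 1041 and 1109 with median-ratio scaling, 1196 and 1229 with scran size factors and 296 and 3083 per ERCC UMI. With a minimum of 20, 200 or 3 UMIs they were 913 and 3769, 179 and 443 and 2864 and 4532, and at 4-fold 289 and 837. The median log2 ratio over all genes (-0.76) was -0.089, -0.042 and 0.022 with TMM, median-ratio and scran scaling, -0.54 without the genes that took over 2% of the UMIs and -1.72 per ERCC UMI. It was -0.87 for the mean of CPM per well, -0.57 after thinning, -0.92 without the low marker wells, -1.01 without these and the deepest well, and -0.95 and -0.37 with a minimum of 20 and 3 UMIs. The log2 ratio of mouse UMIs per ERCC UMI (-0.96) was -0.93 as the ratio of medians over wells and -1.04 without the low marker wells. Of 458 values of called list medians under these alternatives, 1 was reversed, that of the high mobility group chromatin list at a minimum of 200 UMIs (1.30), which fewer genes reach, and 26 were under 2-fold. Of 527 values of named genes past 2-fold, 1 was reversed, that of Ly6a after thinning (-0.50). It and 4 others of Ly6a were under 2-fold, as was 1 of Ly6g, a gate gene under the minimum. Many of the 458 and 527 values could not have reversed. TMM, median-ratio and ERCC scaling shift all genes alike, by less than a log2 of 1. Changing the UMI minimum leaves the ratio of a single gene as it was. A minimum of 50 UMIs leaves low transcripts such as Ly6g and Meis1 out of the comparison. No paired analysis was possible because each population was 1 sample and the numbers in the labels are wells.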
